A study of Anolis sagrei with 10 samples.

Results

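The forkhead (FOX) transcription factors were followed in limb buds of wild-type brown anole embryos (Anolis sagrei, a lizard) at stage 7. The members were the genes whose symbol in the authors' deposited table fits the FOX pattern of a subfamily letter from A to S followed by a number. With this rule 24 genes were found among 25920 identifiers, and each of the 24 had at least 1 count in some library. RNA sequencing covered 10 libraries, 5 of forelimb buds and 5 of hindlimb buds. All came from wild-type embryos of the same stage, collected as pairs of buds, and the replicate numbers 1 to 5 were used in both limbs. The labels do not say what a number marks or whether libraries came from separate embryos, so p-values measure the spread between these samples, which may be partly technical.

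FOX proteins share a winged-helix DNA-binding domain and are grouped by sequence into lettered subfamilies. Some act in nearly every cell: FOXO proteins are excluded from the nucleus when insulin signalling activates AKT, and FOXM1 switches on genes of mitosis. Others belong to particular tissues, such as FOXA proteins in endoderm, FOXJ1 in cells with motile cilia, and FOXC, FOXD, FOXF and FOXL proteins in mesenchyme. In mouse, FOXP1, FOXP2 and FOXP4 act in the developing skeleton, and FOXP1 also works with HOX proteins in spinal motor neurons that serve the limbs.

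Levels are given as CPM, counts of a gene scaled to the library's total, with TMM normalisation across libraries. These values are not divided by transcript length, so levels of different genes were not compared. Total counts per library ran between 41808148 and 54998469, and 1 count was worth 0.0185 to 0.0257 CPM. TBX5, the forelimb-type T-box gene, followed the limb labels, at 428 to 554 CPM in forelimb against 1.0 to 2.87 CPM in hindlimb. Of 6 limb mesenchyme markers, 4 were found by symbol and were summed to 257 to 398 CPM in forelimb libraries and 239 to 337 CPM in hindlimb libraries. In whole buds, fewer cells of a type and less RNA per cell cannot be told apart.

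Of the 24 members, 19 had 10 or more counts in at least 5 libraries and were tested. Among them, 14 averaged at least 1 CPM in both limbs, and FOXA1, FOXH1, FOXL1 and FOXO6 were among those that did not. FOXH1 and FOXL1 passed with 10 counts or more in 8 libraries each. Below the limit were FOXE1, a thyroid factor in mammals, and FOXS1, each with 10 counts or more in 2 libraries. FOXS1 had 0 to 9 counts in forelimb libraries and 0 to 31 in hindlimb libraries, and FOXE1 had 0 to 2 in forelimb and 0 to 12 in hindlimb. FOXB2, known from the nervous system, had 0 to 12 counts in forelimb and 0 to 4 in hindlimb. FOXJ1, the regulator of motile cilia, had 4 to 7 counts in forelimb and 0 to 9 in hindlimb. FOXI1, known from the inner ear and kidney, was counted in 2 libraries only, with 3 counts in forelimb replicate 3 and 4 in hindlimb replicate 4. These 5 members were too sparsely counted for a comparison.

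A RefSeq annotation of this species (assembly rAnoSag1.mat) lists 37 symbols that fit the same pattern, 21 of which are among the 24. The other 16, FOXC1, FOXD1, FOXF1, FOXF2 and FOXO3 among them, had no identifier under that symbol in the table used for naming and were not analysed here. The mesenchymal arm of the family is thus described only in part.

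No tested FOX gene differed between the limbs past the threshold. The limbs were compared within pairs of the same replicate number by edgeR's quasi-likelihood test, with Benjamini-Hochberg adjustment over all 15727 genes tested and a threshold of 0.05. It called 0 of 19 members and 1.32% of all genes tested (207), 0.699% higher in forelimb and 0.617% higher in hindlimb. At an unadjusted p under 0.05 it gave 1 member, FOXP4, or 5.26% of those tested, where 13.7% of all genes passed. Without the pairing edgeR called 0 members and 0.197% of all genes, with 0 members and 3.93% of all genes at an unadjusted p under 0.05. With the pairing, limma voom called 0 members and 1.79% of all genes, with 1 member and 14.1% of all genes at an unadjusted p under 0.05. DESeq2 with the pairing called 1 member, FOXP4, and 3.41% of all genes, with 2 members and 14.2% of all genes at an unadjusted p under 0.05, and without the pairing it called 0 members and 0.636% of all genes. The authors' deposited table held 0 members at an adjusted p under 0.05. It gave an adjusted p for 18 members, the lowest being 0.999962, and none for 6 members. Its lowest unadjusted p among members was 0.0565, for FOXP4. The share of all genes passing in that table is not given here, so its count of members has no background to be read against.

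In 0 of 19 members did the 5 libraries of one limb lie entirely above the 5 of the other, an arrangement seen in 1.18% of all genes. FOXO1 and FOXO6 were the members with the same limb higher in all 5 pairs, 10.5% of members beside 14.7% of all genes. Fold changes were above 0, that is higher in forelimb, in 13 members (68.4%) and below 0 in 6, where 50.2% of all genes were above 0. The median log2 fold change was 0.068 over the members and 0.00073 over all genes tested.

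**Figure D1:**
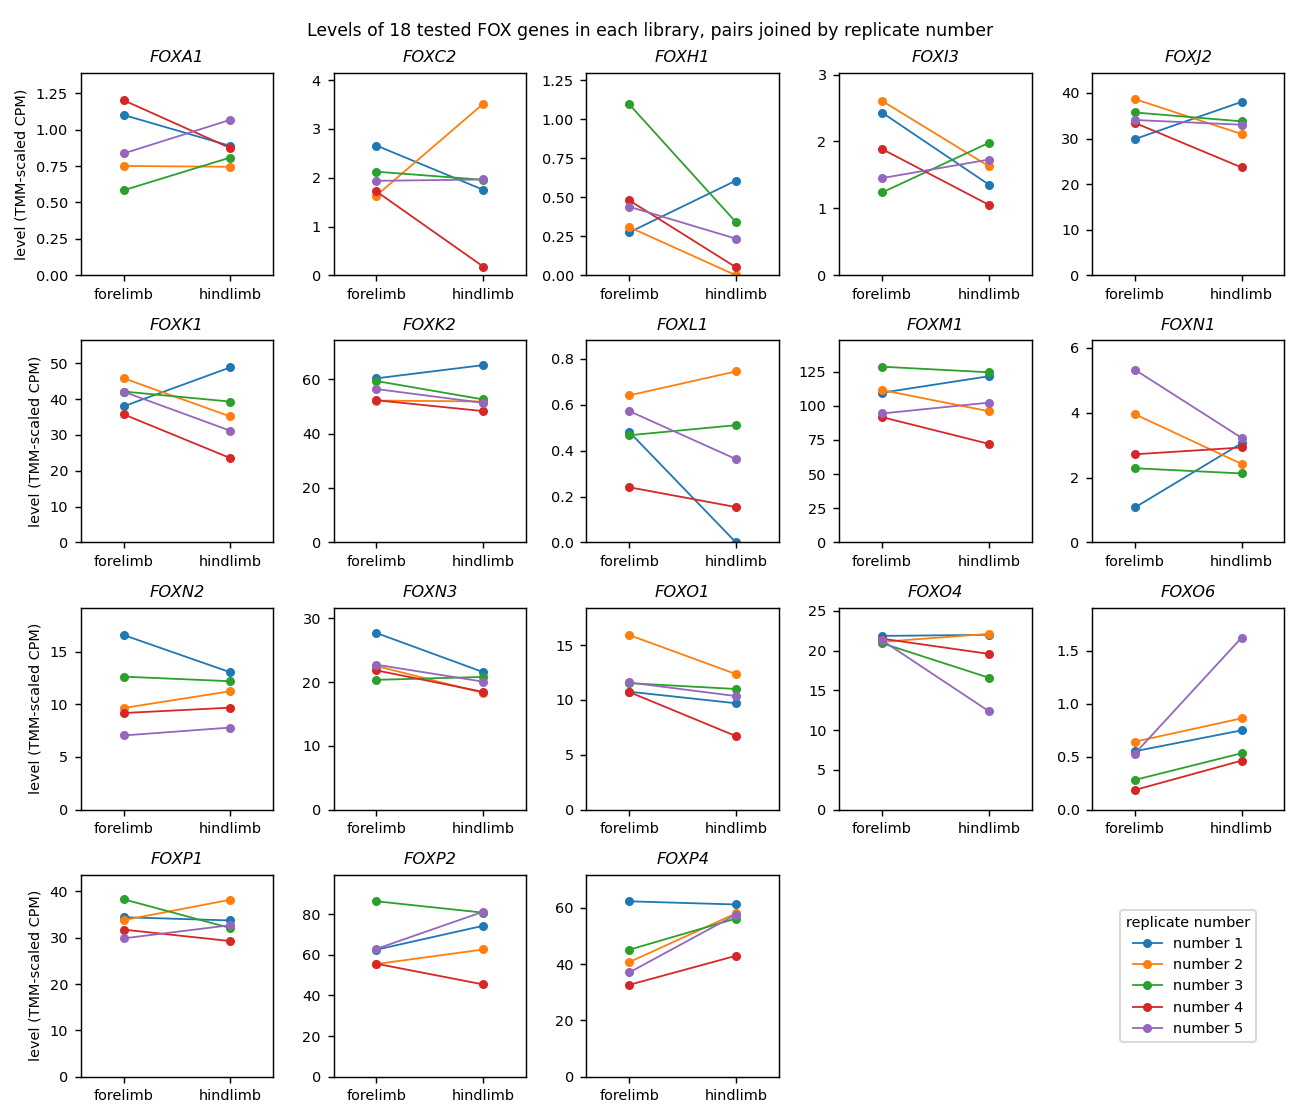
Level of 18 tested FOX genes in every library, in TMM-scaled CPM, with forelimb on the left and hindlimb on the right of each panel and a line joining libraries of the same replicate number; each panel has its own axis starting at 0. The limbs overlap in all 18 panels, and for FOXP4 the hindlimb point is the higher one in 4 of 5 pairs.

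FOXP4, a repressor of the FOXP subfamily (ENSACAG00000002366), came nearest to a limb difference, with higher hindlimb levels. It was at 62.2, 40.7, 45.1, 32.6 and 37.0 CPM in forelimb replicates 1 to 5, against 61.1, 58.0, 56.1, 42.9 and 57.5 CPM in hindlimb replicates 1 to 5. Hindlimb was higher in 4 of 5 pairs and about level with forelimb in pair 1, and forelimb replicate 1 was the highest library of all. FOXP4 averaged 43.5 CPM ± 11.4 in forelimb and 55.1 CPM ± 7.07 in hindlimb (SD, n = 5 each). Its log2 fold change, forelimb over hindlimb, was -0.37 ± 0.09 (SE), with a 95% interval of -0.57 to -0.16, an unadjusted p of 0.00185 and an adjusted p of 0.0831 (edgeR). The exact sign permutation over the 5 pairs gave a two-sided p of 0.125, with 0.0625 the smallest it can give. FOXP4 passed the threshold without replicate number 1 (edgeR adjusted p 0.0115, log2 fold change -0.47), with DESeq2 (0.0217) and when no low-count filter was applied (0.00659). It did not pass without any other number, with voom (0.0750) or without the pairing (unadjusted p 0.0575).

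The other FOXP genes lay closer to no difference. FOXP2, best known for its part in speech in humans and song in birds, was at 62.5, 55.4, 86.3, 55.6 and 62.9 CPM in forelimb replicates 1 to 5, against 74.2, 62.6, 80.7, 45.4 and 81.1 CPM in hindlimb. The limbs overlapped, and hindlimb was higher in 3 of 5 pairs; the fold change on the log2 scale came to -0.08 ± 0.09 (SE). FOXP1 was at 34.4, 33.8, 38.3, 31.8 and 29.9 CPM in forelimb, against 33.7, 38.2, 32.1, 29.3 and 32.7 CPM in hindlimb. Its means of 33.6 CPM ± 3.17 in forelimb and 33.2 CPM ± 3.25 in hindlimb (SD, n = 5 each) differed by less than the spread between libraries, and its 95% interval on the log2 scale was -0.18 to 0.22.

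Of the mesenchymal members FOXC2 and FOXL1 were tested, both from a modest number of reads. FOXC2, required for lymphatic vessels and axial skeleton in mouse (ENSACAG00000008217), was at 2.66, 1.63, 2.12, 1.72 and 1.94 CPM in forelimb replicates 1 to 5, against 1.75, 3.52, 1.96, 0.180 and 1.96 CPM in hindlimb. Hindlimb replicate 4 held 7 FOXC2 counts where every other library held 74 to 151, and the log2 fold change of 0.39 ± 0.48 (SE) became -0.10 without replicate number 4. FOXL1, known from gut mesenchyme in mouse and next to FOXC2 in the RefSeq assembly with 0 annotated genes between them, was at 0.240 to 0.640 CPM in forelimb and 0 to 0.745 CPM in hindlimb. It had 0 counts in hindlimb replicate 1 and 6 in hindlimb replicate 4, while the other libraries had 13 to 32. Its log2 fold change was 0.78 with a 95% interval of -0.86 to 2.42, and it was 0.21 without replicate number 1, 1.09 without number 2 and 0.43 without the pairing, so at this depth neither a difference nor its absence could be shown. Of 5 tested somite and sclerotome markers edgeR called 1, TBX18, which averaged 223 CPM ± 34.0 in forelimb and 134 CPM ± 13.7 in hindlimb (SD, n = 5 each). The other 4 were not called and had log2 fold changes on both sides of 0, with PAX9 at -0.93, PAX1 at -0.63, MEOX1 at 0.23 and TCF15 at 0.06. The part of such cells in the levels of FOXC2 and FOXL1 was not tested.

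FOXO genes, the targets of insulin and AKT signalling, gave 0 calls among the 3 tested. FOXO1 (ENSACAG00000016628) was at 10.8, 15.9, 11.5, 10.7 and 11.6 CPM in forelimb replicates 1 to 5, against 9.70, 12.4, 11.0, 6.70 and 10.4 CPM in hindlimb. Forelimb was the higher library in all 5 pairs although the limbs overlapped. The log2 fold change was 0.28 ± 0.13 (SE), with an unadjusted p of 0.0548 and an adjusted p of 0.374 (edgeR). FOXO6, a neuron-enriched member in mouse (ENSACAG00000000249), was at 0.550, 0.640, 0.280, 0.185 and 0.528 CPM in forelimb, against 0.748, 0.861, 0.532, 0.462 and 1.62 CPM in hindlimb. Hindlimb was higher in all 5 pairs, in pair 5 by the most, on 10 to 29 counts per forelimb library and 18 to 76 per hindlimb library. Its log2 fold change was -0.93 ± 0.49 (SE), with a 95% interval of -2.00 to 0.13 and an edgeR adjusted p of 0.436.

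FOXO4 (ENSACAG00000015254) differed in how widely the libraries of a limb were spread. It was at 21.9, 21.1, 20.9, 21.5 and 21.3 CPM in forelimb replicates 1 to 5, against 22.0, 22.1, 16.6, 19.6 and 12.4 CPM in hindlimb. Forelimb libraries thus sat close together, with an SD of 0.357 CPM, while hindlimb replicates 3 and 5 lay below the rest and gave an SD of 4.11 CPM (n = 5 each). No test of spread was made; the SD of log2 levels was larger in hindlimb in 12 of 19 members and in 63% of all genes. For FOXO4 edgeR gave a log2 fold change of 0.23 ± 0.13 (SE) and an adjusted p of 0.456.

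Of the 6 tested members that act in many cell types, 0 were called. FOXM1, the mitotic activator (ENSACAG00000015333), was at 109.6, 112, 129, 91.7 and 94.4 CPM in forelimb replicates 1 to 5, against 122, 96.1, 125, 72.2 and 102 CPM in hindlimb. Its means of 107 CPM ± 14.9 in forelimb and 103 CPM ± 21.3 in hindlimb (SD, n = 5 each) gave a log2 fold change of 0.07 with a 95% interval of -0.11 to 0.24. FOXK2, which with FOXK1 controls metabolic and autophagy genes in mammals, was at 52.1 to 60.3 CPM in forelimb and 48.2 to 65.1 CPM in hindlimb. Its 95% interval of -0.10 to 0.23 was the narrowest of the 19, and that of FOXM1 came next. FOXK1 was at 35.7 to 45.8 CPM in forelimb and 23.5 to 48.8 CPM in hindlimb and was higher in forelimb in 4 of 5 pairs, with an adjusted p of 0.443 by edgeR. FOXJ2, which acts in the mouse germ line among other tissues, was at 29.9 to 38.6 CPM in forelimb and 23.7 to 38.1 CPM in hindlimb (log2 fold change 0.12 ± 0.11, SE).

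FOXN3, a repressor tied to cell cycle checkpoints (ENSACAG00000012791), had the largest share of its spread with limb of any tested member. It was at 27.7, 22.5, 20.4, 21.8 and 22.7 CPM in forelimb replicates 1 to 5, against 21.6, 18.3, 20.8, 18.5 and 20.1 CPM in hindlimb. Forelimb was higher in 4 of 5 pairs, and pair 3 ran slightly the other way. For a log2 fold change of 0.21 ± 0.10 (SE) edgeR gave an adjusted p of 0.383. FOXN2, a relative of FOXN3, had a log2 fold change of -0.0076 and a 95% interval of -0.29 to 0.28.

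Genes known for roles in other tissues were counted at low levels in both limbs. FOXI3, an ectodermal factor whose mutation makes dogs hairless, was at 1.24 to 2.61 CPM in forelimb and 1.05 to 1.98 CPM in hindlimb. FOXN1, needed for thymus and hair in mouse, was at 1.08, 3.95, 2.29, 2.72 and 5.33 CPM in forelimb, against 3.06, 2.42, 2.13, 2.93 and 3.22 CPM in hindlimb. The forelimb libraries of FOXN1 were the more scattered, and the limb means of 3.07 CPM in forelimb and 2.75 CPM in hindlimb differed by less than that scatter. FOXA1, an endodermal pioneer factor, was at 0.584 to 1.20 CPM in forelimb and 0.745 to 1.07 CPM in hindlimb, and its log2 fold change was -0.0041. Of the endodermal markers found, HNF4A was at 0 to 0.711 CPM in forelimb and 0 to 0.489 CPM in hindlimb, and CDX2 and TTR were also at 0 in some libraries. FOXH1, the SMAD partner in Nodal signalling, had 12 to 47 counts in forelimb libraries and 0 to 26 in hindlimb libraries (log2 fold change 1.51, 95% interval -0.29 to 3.31, edgeR adjusted p 0.457).

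The intervals show how large a limb difference the data would still allow. For 14 of 19 members (73.7%) the 95% interval lay within 2-fold in either direction, as it did for 78.3% of all genes. For 11 members (57.9%) it lay within 1.5-fold, as for 62.6% of all genes. FOXI3 was the 14th only narrowly, with an upper bound of 0.996 on the log2 scale. Those not bounded within 2-fold included FOXC2, FOXH1, FOXL1 and FOXO6, with totals of 879, 174, 188 and 287 counts over all libraries. FOXA1, with 402 counts, and FOXI3, with 788, were bounded on fewer counts than FOXC2. Members were therefore bounded about as often as other genes.

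**Figure D2:**
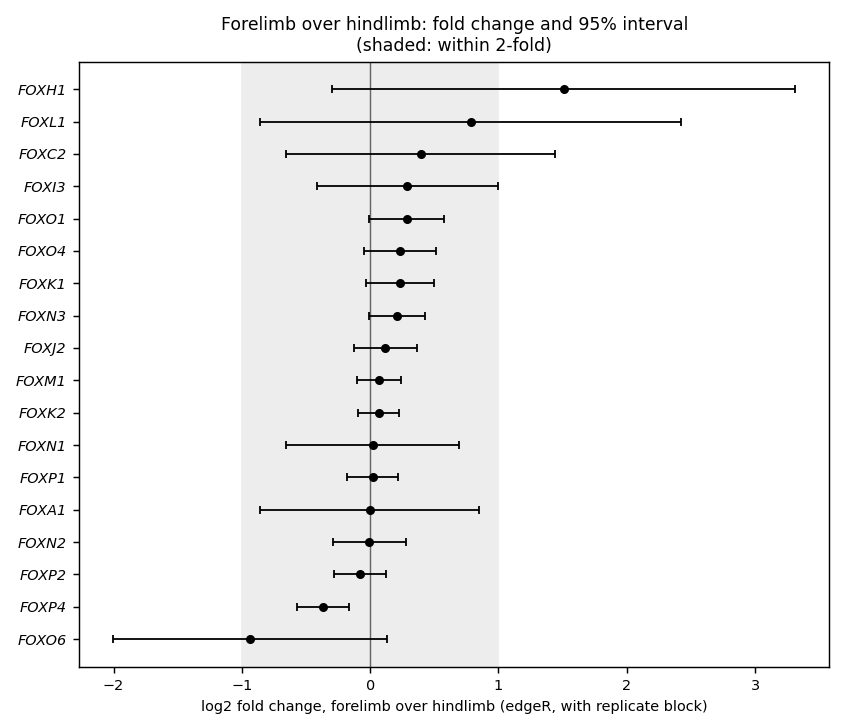
Log2 fold change of 18 tested FOX genes, forelimb over hindlimb, with 95% intervals from the paired edgeR fit; grey marks changes within 2-fold. FOXP4 is the gene whose interval lies wholly on one side of 0, and 4 intervals reach outside the grey band.

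Replicate number accounted for more of the members' spread than limb did. In a balanced split of the sums of squares of log2 CPM, limb held a median of 9.58% of a member's spread, number 51.0% and the rest 34.7%. Over all genes tested the medians were 5.54%, 65.8% and 21.6%. The share of number exceeded that of limb in 18 of 19 members (94.7%) and in 93.7% of all genes; FOXN3 was the exception, with 41.8% for limb and 40.9% for number. The share of number was 92.0% for FOXN2, 82.1% for FOXM1, 79.4% for FOXP2 and 23.2% for FOXI3. With 4 degrees of freedom for number and 1 for limb, number takes the larger share even where neither has an effect, so these shares are a description.

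**Figure D3:**
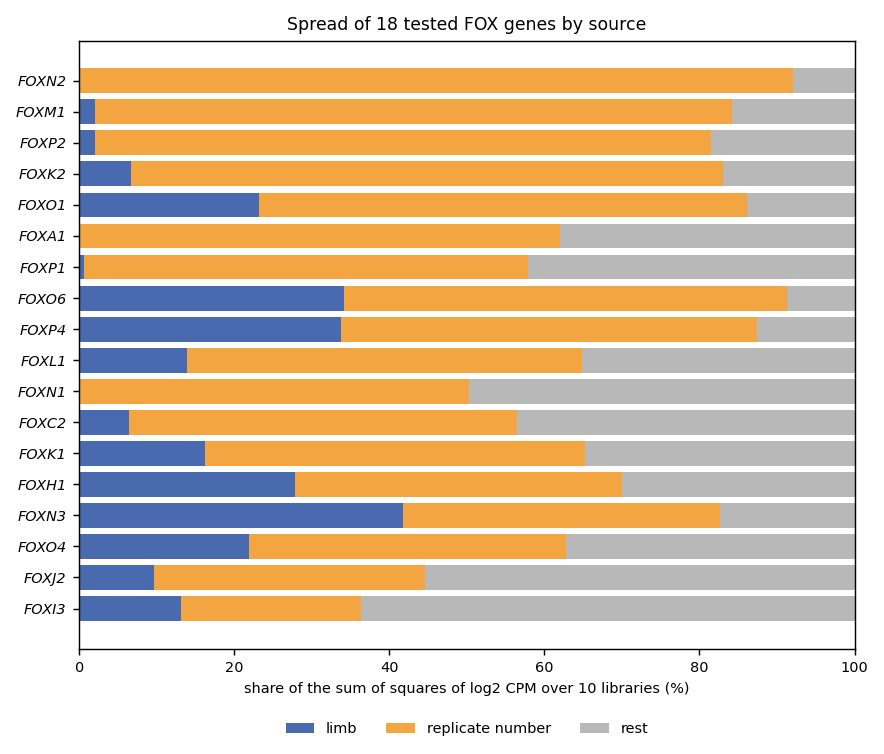
Share of the sum of squares of log2 CPM over 10 libraries, for 18 tested FOX genes, that goes with limb, with replicate number and with neither, in percent. FOXN2 is at the top with 92.0% for number, and FOXN3 has the largest share for limb, 41.8%.

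A test of the number terms beside limb in the same fit, chosen after the levels had been seen, called 4 of 19 members (21.1%) and 25.6% of all genes. They were FOXM1, FOXN2, FOXP2 and FOXP4, with edgeR adjusted p of 0.0193, 0.0240, 0.0203 and 0.0272. FOXN2 was at 16.6, 9.65, 12.6, 9.17 and 7.04 CPM in forelimb replicates 1 to 5, against 13.0, 11.2, 12.2, 9.68 and 7.79 CPM in hindlimb. In both limbs number 1 was highest and number 5 lowest, and the mean of number 1 was 1.997 times that of number 5. FOXM1 was highest in number 3 and lowest in number 4 in both limbs, and FOXP4 was highest in number 1 and lowest in number 4 in both. FOXP2 was highest in number 3 in forelimb and in number 5 in hindlimb, with number 3 close behind. In all, 8 of 19 members (42.1%) were highest in the same number in both limbs, as were 42.4% of all genes.

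These number calls changed as pairs were left out, and so did those over all genes. FOXN2 was not called without number 1 or number 5, FOXM1 and FOXP2 were not called without number 3 or number 4, and FOXP4 was not called without number 1 or number 4. Without number 4 FOXN2 was called, beside 17.5% of all genes, and without number 1 FOXM1 and FOXP2 were called, beside 21.8% of all genes. Over the 5 fits with a number left out the share of all genes was 16.7% to 27.9%. In forelimb replicate 1, where FOXN2, FOXN3 and FOXP4 were at their highest, several marker lists lay outside the range of the other forelimb libraries. Blood markers (5 of 5 found, none at 0 in any library) summed to 142 CPM, against 11.6 to 14.2 CPM in the other forelimb libraries, and to 5.98 to 24.3 CPM in hindlimb. Muscle markers (5 of 6 found) summed to 192 CPM there, against 276 to 334 CPM, but did not all move together. MYOG (92.2 CPM) and MYOD1 (54.3 CPM) had their lowest forelimb level in this library, whereas PAX3 (30.3 CPM) had its highest. MYF5 and LBX1 fell inside their forelimb range. Mesonephros markers (3 of 6) summed to 52.5 CPM in this library, most of it OSR1 (50.5 CPM), against 64.7 to 83.1 CPM. Markers of ciliated epithelium (5 of 6) summed to 35.3 CPM, against 26.8 to 29.2 CPM, and did not all move together either. RFX3 (23.2 CPM) and CCNO (1.83 CPM) had their highest forelimb level in this library, whereas DNAI2 (6.63 CPM) had its lowest. DNAH9 fell inside its forelimb range. In the last lists, PAX2 (mesonephros) and MCIDAS (ciliated epithelium) were at 0 in some library. SHH was at 14.5 CPM there and at 0.0467 to 1.72 CPM in the other forelimb libraries, and at 11.2 CPM in hindlimb replicate 1. Somite and sclerotome markers summed to 279 CPM in forelimb replicate 1, against 198 to 264 CPM in the other forelimb libraries. Most of that sum was TBX18, at 254 CPM in forelimb replicate 1 and 179 to 255 CPM in the other forelimb libraries. Sums of neuron, endothelial, and macrophage and T cell markers were also highest in forelimb replicate 1 among forelimb libraries. The last 2 were so only slightly, at 57.8 against at most 57.3 CPM and 20.8 against at most 20.0 CPM. All 5 blood markers had their highest forelimb level in that library. In the other lists this held for 3 of 5 tested somite and sclerotome, 2 of 3 neuron and 1 of 4 endothelial markers. It held for 0 of 4 macrophage and T cell markers. The part of all these markers in the result was not tested.

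**Figure D4:**
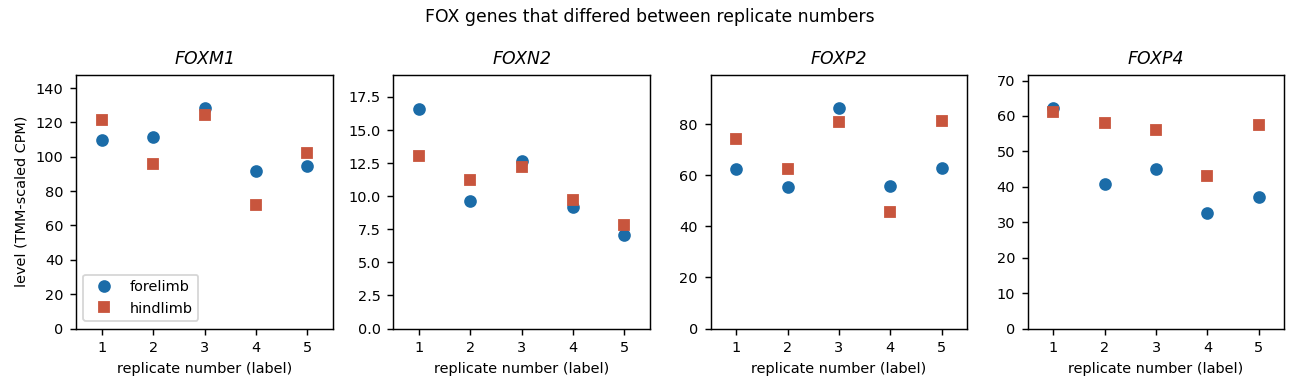
Levels of the 4 FOX genes that differed between replicate numbers, in TMM-scaled CPM, for forelimb (circles) and hindlimb (squares) of each number; axes start at 0. For FOXN2 both limbs are highest in number 1 and lowest in number 5, and for FOXM1 both are highest in number 3 and lowest in number 4.

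Hindlimb replicate 4 stood apart for the family and beyond it. Its tested members summed to 345 CPM, against 405 to 518 CPM in the other 9 libraries, from 13454 FOX counts against 19232 to 22971. Of the lists given below, Hedgehog genes summed to 615 CPM there, against 828 to 994 CPM in the other hindlimb libraries. Genes upstream of FOXO proteins and mesenchymal partners also summed lower there. By gene, it was the lowest hindlimb library for 8 of 17 upstream genes and 4 of 13 partners, and the highest for 4 and 2. FOXM1 targets, at 3165 CPM against 2656 to 2845 CPM, and FOXO targets summed higher. It was the highest hindlimb library for 8 of 13 FOXM1 targets and 5 of 12 tested FOXO targets, and the lowest for 1 and 4. The library had the lowest TMM factor, 0.928 against 0.984 to 1.03, and the fewest identifiers with counts, 17132 against 18024 to 19611. It was the lowest hindlimb library in 11 of 19 members (57.9%), FOXM1, FOXK1, FOXP2 and FOXC2 among them, beside 29.1% of all genes. In the same library 7 of 7 ectoderm and apical ridge markers summed to 628 CPM, against 405 to 484 CPM in the other hindlimb libraries. Endothelial markers (4 of 6 found by symbol) summed to 25.9 CPM there, against 36.8 to 56.2 CPM, and neural crest and glial markers (5 of 6 found) to 43.3 CPM, against 72.1 to 83.8 CPM. Neuron markers (3 of 5) summed to 2.83 CPM, against 4.03 to 6.15 CPM, and macrophage and T cell markers (4 of 5) to 10.4 CPM, against 15.6 to 20.8 CPM. Mesonephros markers summed to 71.7 CPM, against 77.9 to 95.6 CPM. Most of the mesonephros sum was OSR1, at 65.0 CPM there and 74.5 to 91.4 CPM in the other hindlimb libraries. GATA3, at 6.29 CPM, fell inside their range of 3.42 to 6.61 CPM. CD3E and PAX2 were at 0 in some library, and the other markers named in these 6 lists were above 0 in every library. Over whole limbs the ectodermal sum was 452 to 536 CPM in forelimb and 405 to 628 CPM in hindlimb, the endothelial sum 34.7 to 57.8 CPM in forelimb and 25.9 to 56.2 CPM in hindlimb, and the neural crest sum 58.3 to 78.0 CPM in forelimb and 43.3 to 83.8 CPM in hindlimb. Somite and sclerotome markers also summed lower in hindlimb replicate 4, at 123 CPM against 151 to 164 CPM in the other hindlimb libraries. Most of that sum was TBX18, at 111 CPM in hindlimb replicate 4 and 133 to 145 CPM in the other hindlimb libraries. Markers of ciliated epithelium summed to 24.1 CPM there, against 24.9 to 30.3 CPM. Among tested markers of the lists that summed lower there, PAX9, CCNO and PTPRC (macrophage and T cell) were at their highest hindlimb level in that library. The part of all these markers in the low FOX levels was not tested. Without replicate number 4 edgeR again called 0 members, in a fit that called 95 genes in all, beside 207 with all libraries.

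Genes known to act with FOX factors gave 0 calls between the limbs as well. The lists were the mitotic genes that FOXM1 controls, the pathway upstream of FOXO proteins, FOXO targets, Hedgehog pathway genes and mesenchymal partners of FOXC and FOXF genes. By symbol, 13 of 22 FOXM1 targets, 17 of 20 upstream genes, 13 of 17 FOXO targets, 11 of 12 Hedgehog genes and 13 of 17 partners were found. With 66 genes tested over the lists, edgeR called 0 in either direction, beside 1.32% of all genes. At an unadjusted p under 0.05 it gave 0 of 13 FOXM1 targets, 5 of 17 upstream genes, 0 of 12 FOXO targets, 3 of 11 Hedgehog genes and 2 of 13 partners, beside 13.7% of all genes. DESeq2 with the pairing called 1 gene over the lists and voom called 0.

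Mitotic targets of FOXM1 had a median log2 fold change of -0.03, with a range of -0.18 to 0.16. CDC20, an activator of the anaphase-promoting complex, averaged 156 CPM ± 21.3 in forelimb and 175 CPM ± 31.5 in hindlimb (SD, n = 5 each), with an edgeR adjusted p of 0.407. PLK1, a mitotic kinase, averaged 106 CPM ± 12.2 in forelimb and 95.6 CPM ± 18.3 in hindlimb. Across replicate numbers 10 of the 13 differed (edgeR F test, adjusted p under 0.05), beside 25.6% of all genes. Their order of numbers was not that of FOXM1. Number 4, where FOXM1 was lowest, was the highest number for 6 of 13 targets in forelimb and 8 of 13 in hindlimb. It was the highest in both limbs for AURKA, BIRC5, BUB1B, CDC25C, CDK1 and NEK2. Number 3, where FOXM1 was highest, was the highest number for 0 of 13 in either limb.

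Upstream of FOXO proteins, the coactivator and acetyltransferase EP300 averaged 238 CPM ± 31.2 in forelimb and 198 CPM ± 43.2 in hindlimb (SD, n = 5 each). Its log2 fold change was 0.29 ± 0.08 (SE), with forelimb higher in 5 of 5 pairs and an edgeR adjusted p of 0.0877. Its paralogue CREBBP had a log2 fold change of 0.27 (edgeR adjusted p 0.236), and the receptor IGF1R one of 0.26 (0.168), both averaging higher in forelimb. STK3, a Hippo pathway kinase that can phosphorylate FOXO proteins in mammals, averaged 51.6 CPM ± 3.95 in forelimb and 58.0 CPM ± 4.48 in hindlimb and was higher in hindlimb in 5 of 5 pairs, with an edgeR adjusted p of 0.309. The median over the 17 genes was 0.02, and that over the 12 FOXO targets was 0.04, with a range of -0.15 to 0.37.

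Among Hedgehog genes, which act upstream of FOXF genes in mouse mesenchyme, GLI3 averaged 159.7 CPM ± 33.5 in forelimb and 132 CPM ± 26.4 in hindlimb (SD, n = 5 each), with an edgeR adjusted p of 0.148. GLI1, a transcriptional readout of the pathway, averaged 21.3 CPM ± 4.91 in forelimb and 17.1 CPM ± 4.23 in hindlimb and was higher in forelimb in 5 of 5 pairs (edgeR adjusted p 0.236). CDON, a coreceptor, also had forelimb higher in 5 of 5 pairs, with an adjusted p of 0.331 by edgeR. The median over the 11 genes was 0.05, with 6 above 0 and 5 below. Lowest was SHH, the limb's posterior signal, at -0.69, with 3.77 CPM ± 6.04 in forelimb and 3.99 CPM ± 4.37 in hindlimb (SD, n = 5 each) and an edgeR adjusted p of 0.532. Mesenchymal partners had a median log2 fold change of -0.18, with 4 of 13 above 0. The largest change in size was that of PAX9, a sclerotome factor, at -0.93, which had an unadjusted p of 0.107 by edgeR. ALX4 and ALX1, paired-type homeobox genes of limb and face mesenchyme, had log2 fold changes of -0.40 and -0.85 with edgeR adjusted p of 0.256 and 0.304.

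**Figure D5:**
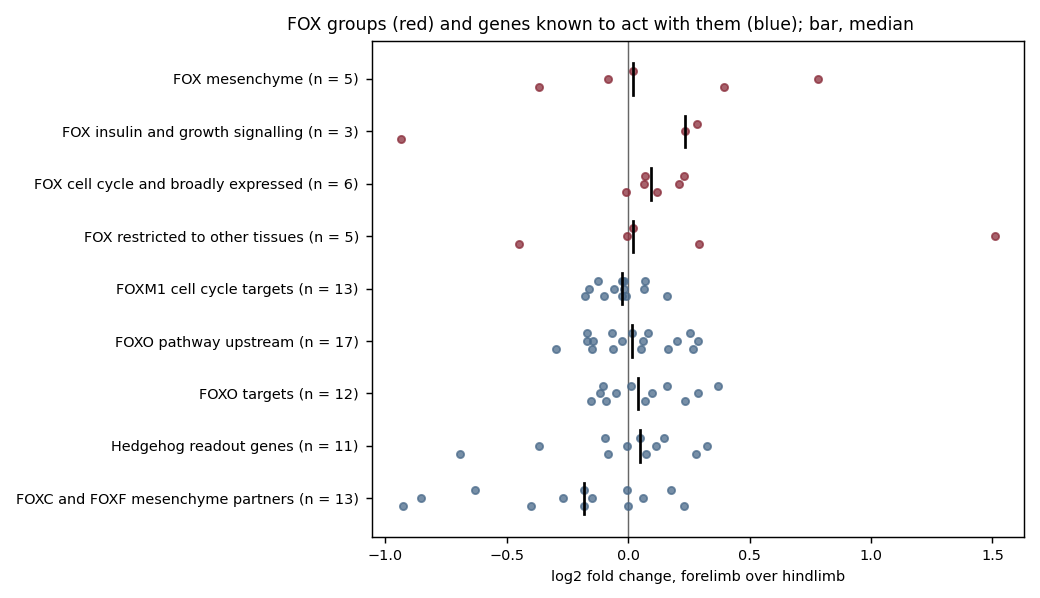
Log2 fold change, forelimb over hindlimb, of each tested gene in the FOX role groups (red) and in the lists of genes known to act with FOX factors (blue); vertical bars are medians. Points of every list fall on both sides of 0, and 0 of them passed the threshold in the paired edgeR test.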

How the data were processed

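RNA from 5 forelimb and 5 hindlimb bud libraries was measured by RNA sequencing (mirVana extraction, TruSeq Stranded mRNA, NextSeq, per the labels' protocols). The submitters' processing notes name FastQC, STAR, featureCounts and DESeq2; versions, genome build, annotation, strand setting and treatment of shared reads are not given in the sources used here. The deposited tables hold raw read counts per gene for each library. The authors' deposited comparison table gives a mean normalised count and a test statistic (both scores), a log2 fold change with its SE, and p-values; it was used for symbols and its own values only.

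Counts were analysed in R 4.3.3 with edgeR 4.0.16 (TMM factors 0.928 to 1.03, robust quasi-likelihood test, replicate number as a block), and with DESeq2 1.42.0 and limma 3.58.1 as alternatives. Genes with 10 or more counts in at least 5 libraries were tested, 15727 of 25920. Fold changes are forelimb over hindlimb; SEs and 95% intervals were derived from the quasi-likelihood F value and its degrees of freedom. The block was used because the comparison was defined as paired by number. Deviations from limb means were compared between libraries over 9747 genes with at least 8 CPM. They correlated at 0.51 to 0.75 between libraries of the same number and at -0.41 to 0.12 between others. The numbers come from the labels, which do not say that a number marks a pair. The correlations come from the same counts that were tested, so they are no separate check of the pairing. Shares of spread used log2 CPM with a prior count of 2. The procedures were run on simulated data, and the outcome is not given here. Values of 1 tested member are not reported here; it stays in the fits and in the counts over 19 members. The other tested members are named with levels; other list genes are the 4 or fewer with the smallest p, the end of a list's range, or targets named for the number they peaked in, the last 2 kinds, and the single markers, chosen after their values were seen. Members and lists were chosen with earlier results of these data known. Alternatives were other scalings, filters and tools, no block, and leaving out each number. Reads shared between related genes could not be assessed.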

Additional observations from a re-analysis of the deposited data

Results flagged for a closer look

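In each limb, the gap between the highest or lowest of the 5 libraries and its nearest neighbour was compared with the range for 40 sets of values, the 19 tested members and the total counts. The gap exceeded Dixon's limit of 0.71 in 6 sets, where chance gives about 1 in 20 for independent, normally distributed values. The sets come from the same libraries and are not independent. The share over all genes tested is not given here, so this count has no background to be read against. FOXH1 was at 1.10 CPM in forelimb replicate 3, the other forelimb libraries lying between 0.275 and 0.481 CPM. FOXP2 was at 86.3 CPM in the same library, against 55.4 to 62.9 CPM. FOXO1 was at 15.9 CPM in forelimb replicate 2, against 10.7 to 11.6 CPM. FOXK2 was at 65.1 CPM in hindlimb replicate 1, against 48.2 to 52.5 CPM. FOXP4 was at 42.9 CPM in hindlimb replicate 4, against 56.1 to 61.1 CPM in the other hindlimb libraries, and forelimb replicate 4 was likewise the lowest forelimb library at 32.6 CPM. Total counts were 54998469 in forelimb replicate 4, against 42151036 to 45608067 in the other forelimb libraries.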

How the results depend on the processing

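Over 18 tested members the alternatives gave 234 fold changes, of which 211 kept their direction and their side of the threshold, 3 kept their direction and passed it, and 20 changed sign without being called. The 3 were those of FOXP4 given with its levels; over all alternatives its log2 fold change ran between -0.47 and -0.29. Members called numbered 0, and 1 (higher in hindlimb) with DESeq2 and the block, with no filter and without number 1; leaving out a number gave 0 to 1, and 0 to 2 for the partner lists, which had 1 call with DESeq2 and the block and 4 with no filter. DESeq2 gave no adjusted p for FOXH1 and FOXL1. Why these settings differ was not tested; fits without a number hold fewer samples.

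With no replicate block edgeR called 31 genes (16 forelimb-high and 15 hindlimb-high); it changed no call among members or lists. DESeq2 with the block called 537 (303 and 234), DESeq2 without it 100 (46 and 54, chosen after seeing the data), and edgeR with no filter 697 (409 and 288). Leaving out a number gave 57 to 315 calls, 30 to 189 of them forelimb-high and 27 to 126 hindlimb-high: 315 without number 1, 57 without number 2, 67 without number 3 and 95 without number 4, beside 207 with all. Members bounded within 2-fold numbered 12 to 15. Members differing between numbers were 1 to 4 when a number was left out, beside 16.7% to 27.9% of all genes. The median share of spread ran over 5.04% to 18.6% for limb, 46.6% to 53.1% for number and 17.1% to 32.5% for the rest when a number was left out, where 18.6% for limb and 17.1% for the rest came without number 1.

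Signs turned in 6 members. FOXA1 (-0.0041) was 0.031 with no replicate block, 0.0053 with upper-quartile scaling, 0.022 with voom, 0.033 with DESeq2 without block, 0.11 without number 3 and 0.089 without number 5, and lowest, -0.12, without number 4. FOXN2 (-0.0076) was 0.029, 0.0019, 0.018 and 0.031 in the same first 4 settings, 0.045 without number 2, 0.0097 without number 4 and 0.031 without number 5, and lowest, -0.10, without number 1. FOXN1 (0.02) was -0.17 without number 2, -0.00026 without number 3 and -0.17 without number 5, and highest, 0.36, without number 1. FOXP1 (0.02) was -0.037 without number 3 and -0.0061 without number 4, and highest, 0.067, without number 2. Without number 4, FOXC2 (0.39) was -0.099, beside 0.80 without number 2, and FOXM1 (0.07) was -0.0015, beside 0.12 without number 1. Totals of 174 to 287 counts over all libraries stand behind FOXH1, FOXL1 and FOXO6, and no count supports a comparison of the 5 untested members.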
